A study of Homo sapiens with 12 samples.

Results

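Disome profiling was used to ask where translating ribosomes collide when cells lose tRNA acetylation, and the values described here are the disome occupancies of 61 sense codons in 4 of the 12 libraries of the series. The 4 libraries were the ones labelled as disome footprints, 2 from wild-type (WT) and 2 from THUMPD1 knockout (KO) cells, and all 61 codons of their table were kept. Both groups were grown in the same medium with serum and lysed with cycloheximide, which halts elongating ribosomes. The cells are HEK293 in the labels and HEK-293T in the methods of the study, an established human embryonic kidney line. The KO line was made with CRISPR-Cas9 and a pair of guides and was sorted as single cells, and the sources used here do not say how many clones the libraries came from. Occupancy per codon carries no level of THUMPD1, so the genotype labels could not be checked from these values. The study calls the libraries biological replicates, while the labels do not say that they came from separate cultures, so p-values measure only the spread between these libraries.

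THUMPD1 is the adapter through which the acetyltransferase NAT10 places N4-acetylcytidine on the D-arm of tRNAs for Leu and Ser. A disome footprint is the mRNA stretch protected when a trailing ribosome has run into a slower leading ribosome, so codons that hold up the leading ribosome are over-represented in such footprints. A codon is matched to its tRNA through 3 bases, and the third base, the wobble base, tolerates the loosest pairing. Inosine at the first anticodon base reads U, C and A, while queuosine and unmodified G read U and C, so synonymous codons that differ only in the third base often share a tRNA.

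The codons with the largest differences between genotypes are shown here because the account below turns on them, with the wobble base in capitals, U written where the table has T, and the difference in log2 occupancy, KO minus WT.
Leu codon with a log2 difference of 0.41: uuG
Ser codon with a log2 difference of 0.38: agC
Thr codon with a log2 difference of 0.35: acC
Leu codon with a log2 difference of 0.35: cuC
Ser codon with a log2 difference of 0.34: ucA
Thr codon with a log2 difference of 0.33: acG
Leu codon with a log2 difference of 0.30: cuG
Leu codon with a log2 difference of 0.30: cuU
Ala codon with a log2 difference of -0.16: gcA
Pro codon with a log2 difference of -0.17: ccU
Asp codon with a log2 difference of -0.23: gaU
Gly codon with a log2 difference of -0.26: ggA
Gly codon with a log2 difference of -0.30: ggC
Gly codon with a log2 difference of -0.35: ggG
Arg codon with a log2 difference of -0.40: cgA
Ser codon with a log2 difference of -0.41: ucG
The higher set takes in 4 Leu codons and the lower set takes in 3 of the 4 Gly codons, and each of the 4 wobble bases occurs in both sets.

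Occupancy is a linear ratio to a baseline of the same library, so a higher value for some codons can lower others, and it gives no number of collisions. Mean occupancy over codons was between 0.949 and 0.962. Values ran from 0.455 for the Thr codon ACC to 3.10 for the Glu codon GAA, both in WT replicate 1. The values of 2 libraries were related over the codons with Pearson's r from 0.854 to 0.915, and no value was identical between libraries. WT replicate 1 had the lowest of the 4 values for 22 codons, against 11 to 15 codons for each of the other libraries. The depth behind each value is unknown, so the spread between libraries is the only error given. A figure legend of the study assigns these values to the leading ribosome, at its A site, and its methods do not state the site. The table does not name the site, both footprint kinds carry the same offset tag in the table titles, and whether that tag sets a disome on its leading or its trailing ribosome was not resolved from the sources used here.

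Log2 occupancy was first averaged over the codons of each amino acid in each library. Leu codons had the largest positive difference and Gly codons the largest negative difference of the 20 amino acids. Thr, Ser and Gln followed Leu on the higher side, and Asp and Lys came next to Gly on the lower side. No amino acid passed an adjusted p of 0.05 (limma, 0 of 20, percent called 0), and Leu missed it narrowly with an adjusted p of 0.0509. Before adjustment 6 amino acids had a p under 0.05, Leu, Thr and Gln higher in KO (15%) and Lys, Asp and Gly lower (15%). The genotypes were separate, with no overlap, for 4 amino acids that were higher in KO (20%) and 6 that were lower (30%).

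**Figure D1:**
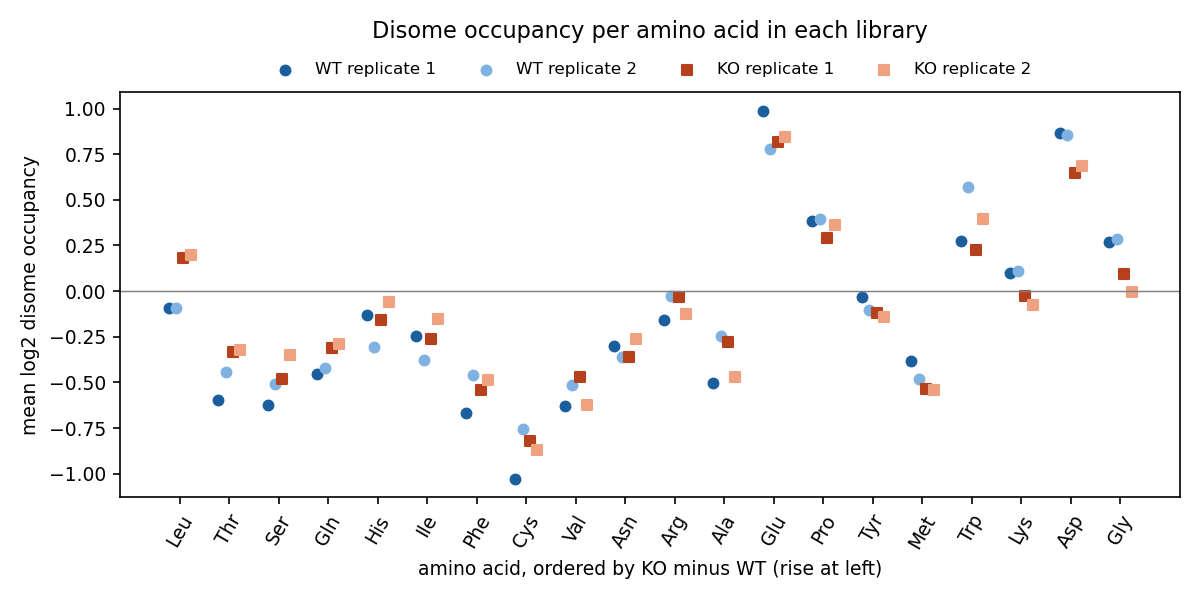
Mean log2 disome occupancy (y axis) over the codons of each amino acid (x axis, ordered by the difference between genotypes), with 1 point per library, blue circles for WT and red squares for KO. Leu values of both KO libraries, 0.18 and 0.20, lie above both WT values of -0.09, Gly shows the opposite order, and Glu and Asp are the most occupied amino acids in all 4 libraries.

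Leu, the branched-chain amino acid whose tRNAs carry the acetylated cytidine, had a geometric mean occupancy over its 6 codons of 0.939 in both WT libraries and of 1.14 and 1.15 in KO replicates 1 and 2. The KO libraries were higher by 1.22-fold, and the groups did not overlap. The log2 difference was 0.28 with a standard error of 0.05 and a 95% interval from 0.16 to 0.40 (limma, adjusted p = 0.0509). All 6 Leu codons were positive, from 0.06 for UUA to 0.41 for UUG. Without overlap 5 of them were higher, beside 18 of all 61 codons (29.5%). The UUA groups overlapped, and median centring shifted every codon by -0.09, more than the UUA difference. The WT values of the Leu mean agreed more closely than those of any other amino acid, and the standard error borrows its size from the spread of the other amino acids. The difference stayed between 0.27 and 0.29 when any library was left out, and it was 0.19 when each library was centred on its median codon. Of 17 alternative settings, 10 gave an adjusted p under 0.05, within a range from 0.000369 to 0.223 (limma).

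Thr, which carries a side-chain hydroxyl, came next. Its occupancy was 0.660 and 0.735 in the WT libraries and 0.793 and 0.798 in the KO libraries. Both KO values were above both WT values, with a log2 difference of 0.19 ± 0.07 (SE, limma adjusted p = 0.147). WT replicate 1 was the lowest, and without it the difference was 0.11, within a range from 0.10 to 0.27 over all alternatives on the log2 scale. Ser had occupancies of 0.649 and 0.704 in WT and of 0.717 and 0.784 in KO. The Ser groups were separate by a narrow margin, with a log2 difference of 0.15 ± 0.07 (SE, limma adjusted p = 0.302), and the difference was 0.09 both without KO replicate 2 and without WT replicate 1. Over all alternatives on the log2 scale it ran from 0.03, with the 46 most occupied codons, to 0.24. Gln, which carries a side-chain amide, had 0.730 and 0.746 in WT and 0.806 and 0.819 in KO. Its replicates lay close together, and the log2 difference was 0.14 ± 0.05 (SE, limma adjusted p = 0.147), with 0.04 after median centring as the lowest value of any alternative.

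Gly, the smallest amino acid, had occupancies of 1.21 and 1.22 in the WT libraries and of 1.07 and 0.998 in the KO libraries. KO values lay below both WT values, at 0.851 of the WT level. The log2 difference was -0.23 ± 0.06 (SE, limma adjusted p = 0.0836), with a 95% interval from -0.38 to -0.08. All 4 Gly codons were negative, and GGU stood apart with -0.02 while GGA, GGC and GGG had -0.26, -0.30 and -0.35. Over 17 alternative settings the Gly difference was negative, and 5 of them gave an adjusted p under 0.05 (limma, 0.00684 to 0.269).

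Asp, an acidic amino acid, had occupancies of 1.82 and 1.81 in WT and of 1.57 and 1.61 in KO, which are close within each genotype and separate between them. The log2 difference was -0.19 ± 0.05 (SE, limma adjusted p = 0.0836), with GAU at -0.23 and GAC at -0.16. With quantile normalization, which assigns every library the same set of values by rank, the Asp difference was 0.04. Lys, a basic amino acid, had 1.07 and 1.08 in WT and 0.980 and 0.949 in KO. Both of its codons were lower in KO by a like amount, with log2 differences of -0.16 for AAA and -0.15 for AAG. The Lys mean differed by -0.16 ± 0.05 (SE, limma adjusted p = 0.137). Trp, the fourth of the lower amino acids and encoded by a single codon, had 1.21 and 1.48 in WT and 1.17 and 1.32 in KO. Its groups overlapped, and the log2 difference of -0.11 ± 0.12 (SE, limma adjusted p = 0.626) was -0.26 without WT replicate 1 and 0.04 without WT replicate 2. Met, also with a single codon, did separate the genotypes, with 0.766 and 0.717 in WT and 0.691 and 0.688 in KO and a log2 difference of -0.10 ± 0.06 (SE, limma adjusted p = 0.327).

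**Figure D2:**
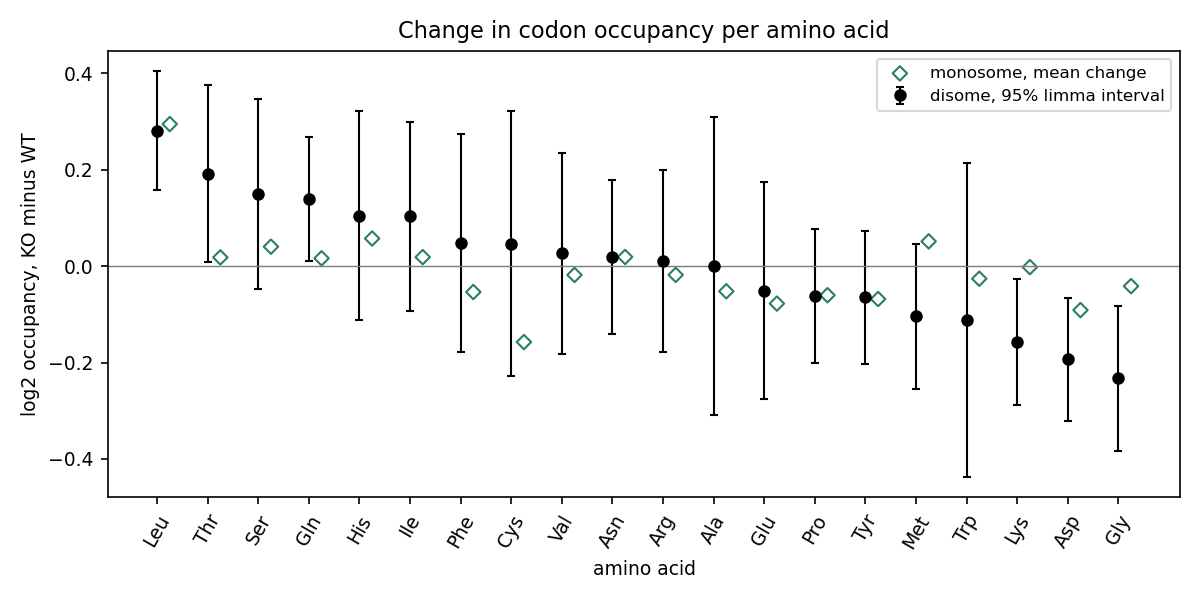
Log2 difference in occupancy, KO minus WT (y axis), for each amino acid (x axis). Black points with bars are disomes with the 95% interval from limma (2 libraries per genotype), and open diamonds are the mean difference in monosomes (4 per genotype, no interval drawn). Leu lies at 0.28 in disomes and 0.29 in monosomes, while Thr, Gly and Lys lie farther from 0 in disomes than in monosomes.

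The remaining amino acids lay closer to 0. The log2 difference was 0.10 for both His and Ile, 0.05 for both Phe and Cys, 0.03 for Val, 0.02 for Asn, 0.01 for Arg and 0.00 for Ala. On the negative side it was -0.05 for Glu and -0.06 for both Pro and Tyr. Pro and Tyr did not overlap between groups, with KO lower, and the others did. Alternatives on the log2 scale put Pro between -0.16 and -0.0035 and Tyr between -0.16 and -0.03, and without a single library Pro was as near to 0 as -0.02 (KO replicate 1) and Tyr as -0.03 (WT replicate 1). Without WT replicate 2 His was 0.02 and Ile 0.04, and without WT replicate 1 they were 0.19 and 0.17. After median centring His and Ile were both at 0.01. For Ala the 95% interval ran from -0.31 to 0.31, so a difference as large as that of Leu was not detectable there. The sign for Ala, Arg, Asn, Asp, Cys, Phe, Val, Glu, Trp and Ile turned under some scaling, summary of codons or left-out library.

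Grouped by side chain, Asn, Gln, Ser and Thr, with an amide or hydroxyl group, were positive in 4 of 4 cases, beside 12 of all 20 amino acids. Of the other groups, 4 of 5 aliphatic, 2 of 3 basic, 1 of 3 aromatic and 0 of 2 acidic amino acids were positive. Among Cys, Gly and Pro 1 of 3 was positive. Asn was at 0.02 with overlapping groups and at -0.08 after median centring. Tyr, which also has a hydroxyl but was counted as aromatic, was at -0.06. Of the 14 codons for Asn, Gln, Ser and Thr 9 were higher without overlap and 1 was lower, beside 18 (29.5%) and 14 (23%) of all 61 codons. The median difference of these 14 codons was 0.16, against 0.04 over all codons. Of the 18 aliphatic codons (Ala, Ile, Leu, Met and Val) 6 were higher without overlap, 5 of them for Leu, and 2 were lower. The 4 acidic codons had 0 higher and 3 lower, with a median of -0.13. The 10 basic codons had 2 higher and 3 lower and a median of 0.04. Of the 10 codons for Cys, Gly and Pro 1 was higher and 4 were lower, 3 of them for Gly. The 5 aromatic codons had 0 higher and 1 lower.

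The same averages were taken from the 8 monosome libraries, whose table may have been normalized separately, so the values are set side by side and were not tested against each other. Leu had a log2 difference of 0.29 in monosomes and did not overlap between genotypes there. For Thr, Ser and Gln the monosome difference was 0.02, 0.04 and 0.02. For Gly, Asp and Lys it was -0.04, -0.09 and -0.002, and all 6 of these amino acids overlapped between genotypes in monosomes. Cys, with 0.05 in disomes, was the only amino acid that was lower in monosomes without overlap, with -0.16.

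Single codons were then compared. Of 61 codons 37 had a positive and 24 a negative log2 difference, and 0 passed an adjusted p of 0.05 (limma, percent called 0, smallest adjusted p = 0.236). Before adjustment 10 codons had a p under 0.05, 6 of them higher (9.84%) and 4 lower (6.56%). The median absolute difference was 0.14, close to the median pooled SD of replicates of 0.13, and the median codon had a 95% interval of 0.30 on either side. After median centring, which lowered every difference by 0.09, 11 codons were higher without overlap and 19 lower, in place of 18 and 14.

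The Leu codon UUG had the largest positive difference, with occupancies of 0.907 and 0.977 in the WT libraries and of 1.27 and 1.24 in the KO libraries. These groups were well separate, and the log2 difference was 0.41 ± 0.10 (SE, limma adjusted p = 0.236). CUC had 0.965 and 0.815 in WT and 1.18 and 1.08 in KO. CUG had 0.781 and 0.933 in WT and 1.07 and 1.04 in KO. CUU had 0.756 and 0.817 in WT and 0.998 and 0.936 in KO. In each of these 3 codons both KO libraries were higher than both WT libraries, with log2 differences from 0.30 to 0.35 and limma adjusted p from 0.264 to 0.277. The CUC difference was 0.23 without WT replicate 2 and the CUG difference 0.18 without WT replicate 1. UUA, by contrast, had 1.23 and 1.03 in WT and 1.06 and 1.30 in KO, so its groups overlapped.

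Among the Ser codons AGC had 0.503 and 0.716 in WT and 0.754 and 0.807 in KO, and UCA had 0.689 and 0.610 in WT and 0.833 and 0.811 in KO. Both were higher in KO without overlap. For AGC the log2 difference of 0.38 was 0.12 without WT replicate 1, while for UCA it was 0.34 and lay between 0.25 and 0.43 when any library was left out. UCG, the Ser codon with the largest negative difference of all codons, had 1.03 and 0.936 in WT and 0.592 and 0.922 in KO. The log2 difference of -0.41 rested on KO replicate 1 and was -0.09 without it.

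The Thr codon ACC, among the 3 least occupied codons, had 0.455 and 0.634 in WT and 0.714 and 0.657 in KO. Its log2 difference of 0.35 was 0.11 without WT replicate 1. ACG, another Thr codon, had 0.732 and 0.767 in WT and 0.913 and 0.973 in KO. Here replicates agreed, and the log2 difference was 0.33 ± 0.10 (SE, limma adjusted p = 0.264), between 0.28 and 0.38 when any library was left out. ACA was the exception among Thr codons, with a log2 difference of -0.12 and overlapping groups.

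On the lower side the Arg codon CGA had 1.99 and 1.88 in the WT libraries and 1.45 and 1.48 in the KO libraries. It had the smallest p of the lower codons, with a log2 difference of -0.40 ± 0.10 (SE, limma adjusted p = 0.236). Its adjusted p was under 0.05 on the linear scale and when the prior of the test was robust and followed the mean-variance trend. Over 15 alternatives the adjusted p ran from 0.00461 to 0.748 (limma), and with quantile normalization the difference was -0.20. The other Arg codons lay between -0.12 and 0.25, so the Arg mean near 0 covered codons of opposite sign. The Gly codon GGG had 1.26 and 1.24 in WT and 1.03 and 0.926 in KO. GGC had 1.07 and 1.15 in WT and 0.922 and 0.879 in KO. GGA had 1.44 and 1.36 in WT and 1.20 and 1.13 in KO. All 3 were lower in both KO libraries, with limma adjusted p of 0.264, 0.264 and 0.271.

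The Asp codon GAU had 1.78 and 1.74 in WT and 1.47 and 1.53 in KO, and the Ala codon GCA had 0.791 and 0.859 in WT and 0.723 and 0.749 in KO. Both were lower in KO without overlap, with log2 differences of -0.23 and -0.16 (limma adjusted p = 0.281 and 0.435). The Pro codon CCU had 1.55 and 1.46 in WT and 1.19 and 1.51 in KO. Its groups overlapped, and the difference of -0.17 was 0.01 without KO replicate 1.

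The most occupied codons by mean log2 occupancy over the 4 libraries were GAA, GAC and CGA. GAA, for Glu, had 3.10 and 2.43 in WT and 2.69 and 2.83 in KO and was the highest codon in every library. GAC, for Asp, had 1.86 and 1.88 in WT and 1.67 and 1.69 in KO, with both KO values below the WT values. The least occupied codons were ACC and both Cys codons. UGC had 0.470 and 0.636 in WT and 0.501 and 0.626 in KO, and UGU had 0.511 and 0.552 in WT and 0.641 and 0.478 in KO, so neither Cys codon separated the genotypes.

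**Figure D3:**
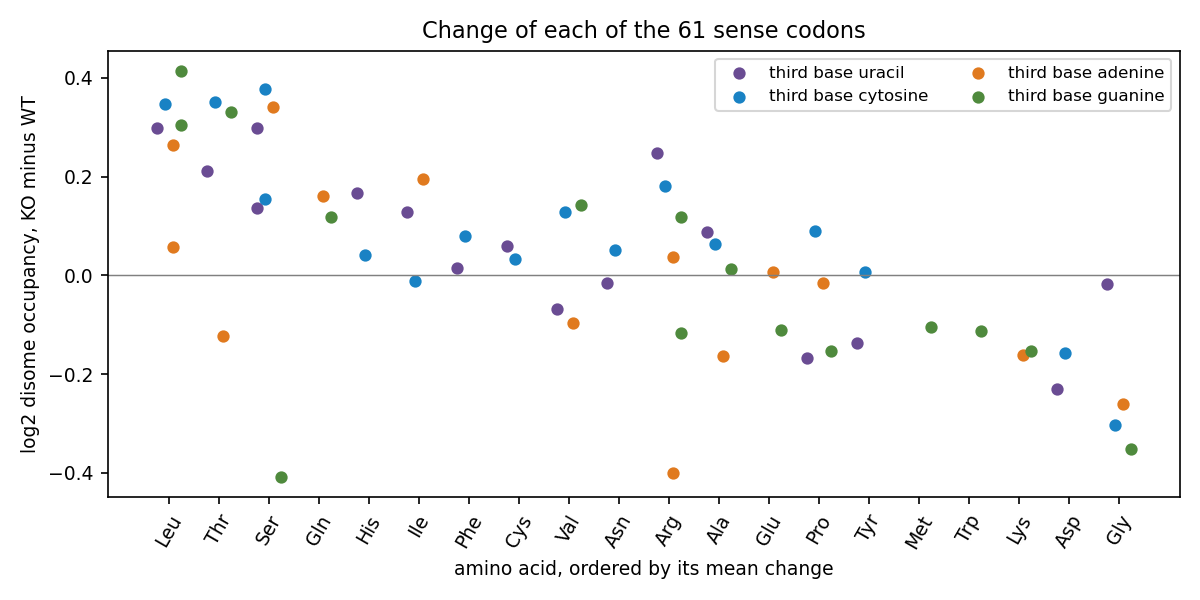
Log2 difference in disome occupancy, KO minus WT (y axis), of each sense codon, placed by its amino acid (x axis) and coloured by the third base. All 6 Leu codons lie above 0 and all 4 Gly codons below it, the nearest at 0.06 and -0.02. The Ser codon at -0.41 and the Arg codon at -0.40 lie far from their synonymous codons.

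Codons were next grouped by the third base. The 16 codons ending in U had mean log2 occupancies of -0.40 and -0.25 in the WT libraries and of -0.26 and -0.27 in the KO libraries. WT replicate 1 was the lowest and the others lay together, so the difference of 0.06 was smaller than the spread of replicates, a pooled SD of 0.08 (exact permutation p = 1). The 16 codons ending in C had -0.36 and -0.29 in WT and -0.25 and -0.22 in KO. This was the only class whose groups did not overlap, and the difference was 0.09 beside replicates with a pooled SD of 0.04. Its exact permutation p, two-sided, was 0.333, the lowest value that 2 against 2 libraries allow. That difference was 0.04 without the Leu and Ser codons, where the groups overlapped (exact permutation p = 0.667), and also 0.04 over the 46 most occupied codons. It was 0.03 with equal spread, 0.04 with quantile normalization, -0.005 after median centring and between 0.05 and 0.13 when any library was left out.

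The 14 codons ending in A were the most occupied class in every library, with 0.23 and 0.10 in WT and 0.18 and 0.13 in KO. KO lay between the WT values, and the difference was -0.01 (exact permutation p = 1). The 15 codons ending in G had -0.18 and -0.07 in WT and -0.14 and -0.12 in KO, again between the WT values, with a difference of -0.005 (exact permutation p = 1). Adjusted over the 4 classes every exact p was 1. In monosomes the differences were -0.01 for both pyrimidine endings, 0.04 for A and 0.03 for G.

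**Figure D4:**
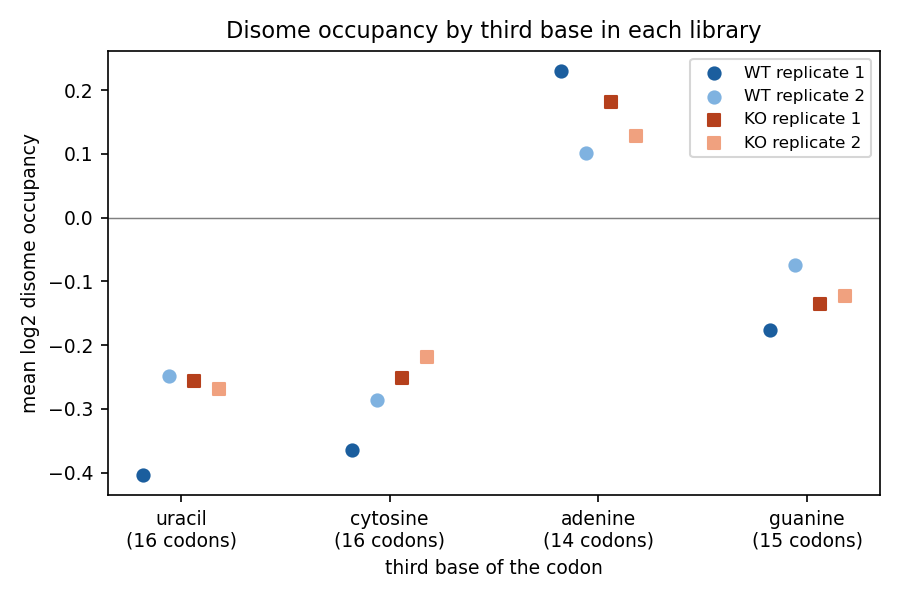
Mean log2 disome occupancy (y axis) over the codons that share the third base (x axis), with 1 point per library, blue circles for WT and red squares for KO. The gap between the WT replicates is wider than the difference between genotype means for every class except cytosine, where it is 0.08 against 0.09.

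Each class mixed codons that were higher and lower in KO. Without overlap 5 of 16 codons ending in U were higher and 2 lower, and 6 of 16 ending in C were higher and 2 lower. Of the 14 ending in A 3 were higher and 4 lower, and of the 15 ending in G 4 were higher and 6 lower. Over all 61 codons 18 (29.5%) were higher and 14 (23%) lower. The amino acid took 50.0% of the sum of squares of the 61 differences between KO and WT means, where 20 classes take 31.7% by their number alone. The third base took 4.85%, against 5% by number. For the difference between the WT libraries the shares were 29.8% for the amino acid and 21.1% for the third base. For that between the KO libraries they were 23.1% and 2.34%. These shares describe the libraries and were not tested.

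To compare wobble bases within an amino acid, the log2 ratio of codons that share the first and second base was taken in 16 pairs ending in C or U and in 13 pairs ending in G or A. None of the 29 ratios passed an adjusted p of 0.05 (limma, 0 of 29, percent called 0, smallest adjusted p = 0.410), while before adjustment 1 ratio that was higher and 1 that was lower had a p under 0.05 (3.45% each). KO and WT did not overlap for 5 pairs that were higher and 5 that were lower (17.2% each).

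Averaged over the 16 pairs, the C minus U ratio was 0.04 and -0.04 in the WT libraries and 0.005 and 0.05 in the KO libraries. The groups overlapped, and the difference was 0.03 (exact two-sided permutation p = 0.667). It was 0.03 over the 8 boxes read through an inosine anticodon, 0.04 over the 4 pairs read by queuosine tRNAs (Tyr, His, Asn and Asp) and -0.002 over the other 4 (exact permutation p = 0.667, 0.667 and 1). The G minus A ratio averaged -0.43 and -0.21 in WT and -0.31 and -0.26 in KO. The mean ratio was below 0 in all 4 libraries, although single pairs such as UCG to UCA were above 0 in some, and the genotypes differed by 0.04 with overlapping groups (exact permutation p = 1). Adjusted over these 5 contrasts every exact p was 1.

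Single pairs stood out on both sides. For Ser the log2 ratio of UCG to UCA was 0.58 and 0.62 in WT and -0.49 and 0.19 in KO. The UCG codon was the more occupied of the pair in both WT libraries, and the ratio was lower in both KO libraries, by -0.75 ± 0.24 (SE, limma adjusted p = 0.410) and by -0.41 without KO replicate 1. Without KO replicate 2 it was -1.09 (limma adjusted p = 0.00996), and with the replicate block the adjusted p was 0.00917, within 0.00917 to 0.859 over its alternatives (limma). For Thr the ratio of ACG to ACA was -0.36 and -0.10 in WT and 0.20 and 0.24 in KO, so the order of the codons was reversed between genotypes. The difference was 0.45 ± 0.15 (SE, limma adjusted p = 0.410) and 0.32 without WT replicate 1.

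For Leu the ratio of UUG to UUA was -0.44 and -0.08 in WT and 0.26 and -0.07 in KO. The values of KO replicate 2 and WT replicate 2 nearly coincided. The difference was 0.36 (limma adjusted p = 0.849), and it was 0.18 without WT replicate 1 and 0.19 without KO replicate 1. The other large positive differences were 0.28 for the Arg ratio of CGG to CGA, which was 0.07 without WT replicate 1, and 0.26 for the Pro ratio of CCC to CCU, which was 0.13 without KO replicate 1. On the negative side, the Gly ratio of GGC to GGU was -0.04 and 0.02 in WT and -0.30 and -0.29 in KO, a difference of -0.29 ± 0.13 with close replicates (SE, limma adjusted p = 0.767). The Ser ratio of UCC to UCU and the Ile ratio of AUC to AUU each differed by -0.14 (limma adjusted p = 0.849 for both). Without WT replicate 1 the UCC to UCU difference was -0.05, and without WT replicate 2 it was -0.24. Without KO replicate 1 the AUC to AUU difference was -0.09.

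**Figure D5:**
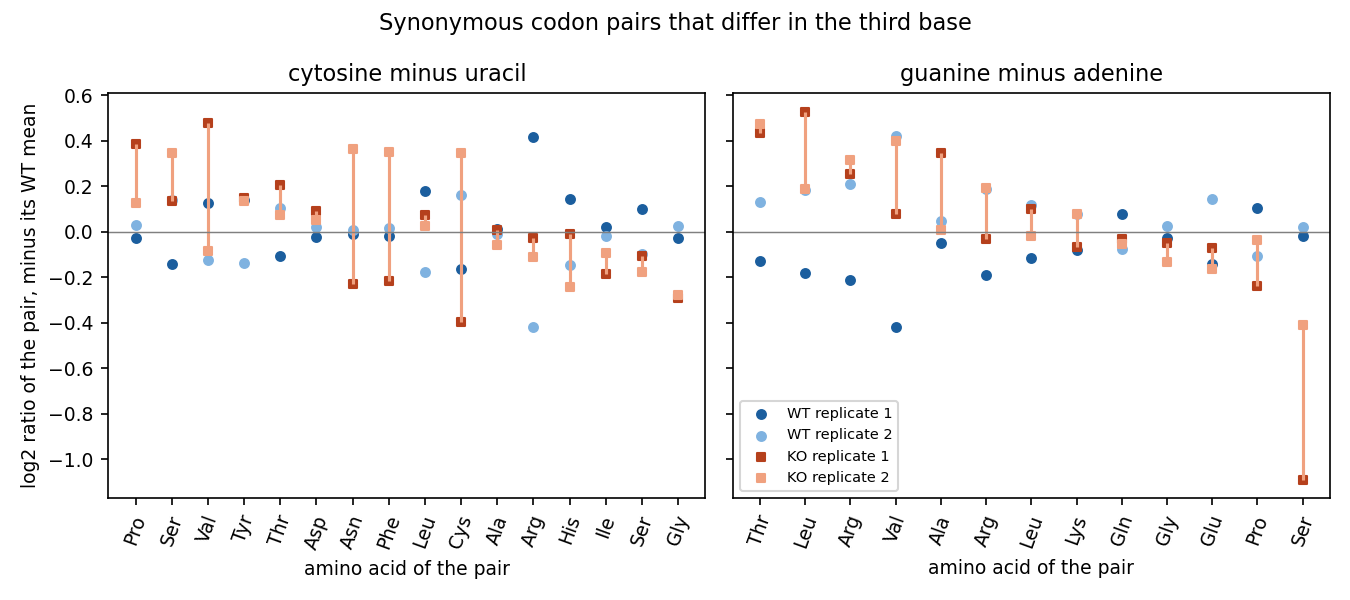
Log2 ratio of the occupancies of synonymous codons that differ in the third base, minus the WT mean of that ratio (y axis), for 16 pyrimidine-ending and 13 purine-ending pairs (x axis, by amino acid and ordered by the KO mean), with 1 point per library and a line joining the KO libraries. The Ser pair at the far right of the purine panel lies lowest, with a KO mean of -0.75, and in most other pairs WT and KO libraries intermingle.

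The evenness of occupancy over codons was compared last. The SD of log2 occupancy across the 61 codons was 0.56 and 0.46 in WT and 0.43 and 0.44 in KO, so both KO libraries were more even than both WT libraries. The difference was -0.07 (exact permutation p = 0.333, the floor of the test) and -0.02 without WT replicate 1. The most occupied codon exceeded the least occupied by 6.82-fold in WT replicate 1, by 4.40-fold in WT replicate 2, and by 5.36-fold and 5.92-fold in the KO libraries. Codons with a high level in WT replicate 2 tended to have a lower KO value relative to WT replicate 1 (r = -0.522 across 61 codons). With the WT libraries exchanged the relation was weak (r = -0.187). These r share the KO libraries and describe codons, which are not independent replicates.

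How far the differences recurred between libraries was described by taking KO replicate 1 against a WT library and KO replicate 2 against the other. Across the 61 codons the differences correlated with r = 0.264 when numbers matched and 0.234 when they were crossed, with the same sign in 37 and 43 codons. Across the 20 amino acids r was 0.303 and 0.499, with the same sign in 11 and 13. Across the 29 synonymous pairs r was 0.233 and -0.0772, with the same sign in 17 and 14 pairs. For differences within genotypes, KO replicate 1 minus 2 against WT replicate 1 minus 2, r was 0.0212 across codons, -0.245 across amino acids and 0.267 across pairs, with the same sign in 30, 9 and 19. No library was shared between the differences set against each other, and each library's baseline is common to all of its codons.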

How the data were processed

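After trimming, the authors used STAR to discard reads of ribosomal and other noncoding RNA and to map the remainder to canonical UCSC transcripts (hg19), kept unique alignments, and computed occupancies with custom Python and R scripts. The deposited values are a linear ratio per codon, in 1 column per library and 1 table per footprint kind. The denominator and any minimum on coverage are not given in the sources used here. Read counts were not used here, so depth is unknown and no counting interval was computed.

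Groups and replicate numbers came from the sample titles. Values were taken to log2 without a pseudocount or a filter (no value was 0). Codons, amino acid means and synonymous ratios were each compared between KO and WT with limma 3.58.1 in R 4.3.3 (lmFit and eBayes, no block) on the 4 disome libraries, with Benjamini-Hochberg adjustment over 61, 20 or 29 features and a threshold of 0.05. Third-base means, mean ratios and SDs were compared with exact two-sided permutation tests over libraries, which cannot give a p below 0.333 here. "Without overlap" means that both KO libraries lie on the same side of both WT libraries.

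All 61 codons could be named. Values per library were given for the 8 largest differences in each direction, the 3 highest and 3 lowest codons, the 4 extreme amino acids on each side and the 4 extreme ratios. Values of Met, UUA and ACA and counts by first and second base were chosen after the values had been seen. Members, lists and tests were chosen with earlier results of these data known. The code was tested on simulated data with known differences. Deviations of libraries with the same replicate number correlated with r = 0.0212 across codons, so the numbers were not taken to pair the libraries. Alternatives were 4 scalings, a base composition correction, a pseudocount of 0.1, the linear scale, a trend and robust prior, the 46 codons of highest occupancy, the replicate block, other summaries per amino acid, class means without Leu and Ser or with the amino acid mean subtracted, and each library left out, where the lone library of a genotype is assumed to vary like the others. The scalings of first- and second-base classes and the counts without overlap after leaving out a library were added after seeing the data.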

Additional observations from a re-analysis of the deposited data

How the results depend on the processing

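All values in this part are log2 differences, KO minus WT, or counts of features past an adjusted p of 0.05, except that values on the linear scale are differences of occupancy. Groups of 2 libraries limit every test, and depth is unknown. No codon passed as deposited, 1 passed on the linear scale (CGA), 4 with the trend and robust prior (UUG higher, CGA, GAU and GGG lower), and 0 to 3 when 1 library was left out (UCG without KO replicate 2, ACC, AGC and CGU without WT replicate 2). Amino acids past the threshold numbered 0 as deposited. There was 1 (Leu) with the 46 codons, with centring on the 49 codons left after removing those of Leu and Ser, with equal spread, with the pseudocount and with quantile normalization. There were 3 on the linear scale (Leu, Asp and Gly) and 3 with median centring (Asp, Gly and Lys), and 4 with the base composition correction and 4 with the trend and robust prior (Leu, Asp, Gly and Lys). Leaving out 1 library gave 0 to 3 (Leu, Gly and Trp without WT replicate 1, Leu and Thr without WT replicate 2). The replicate block gave 0 codons, 0 amino acids and 1 synonymous ratio (UCG to UCA, limma adjusted p = 0.00917, 0.00917 to 0.859 over its alternatives), which also passed without KO replicate 2, so ratios numbered 0 to 1. It changed no other call. With 3 libraries, 22 to 30 codons were higher without overlap and 20 to 22 lower, in place of 18 and 14, since fewer libraries overlap less often. The block with the base composition correction gave 0 of each.

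Some differences near 0 or under a scaling changed sign or became 0. With median centring they were -0.094 for Ala, -0.083 for Arg, -0.076 for Asn, -0.048 for Cys, -0.047 for Phe, -0.068 for Val, -0.087 for GAA, -0.061 for UGC, -0.035 for UGU, -0.00505 for codons ending in C and -0.031 for those ending in U. With equal spread they were -0.0790 for Ala, -0.0192 for Arg, -0.0395 for Asn, -0.11 for Cys, 0.073 for Glu, -0.055 for Phe, -0.073 for Val, -0.13 for UGC, -0.086 for UGU, -0.017 for G minus A and 0.00661 for A-ending codons. With quantile normalization they were -0.12 for Ala, -0.00360 for Arg, -0.052 for Asn, 0.038 for Asp, -0.044 for Cys, -0.075 for Phe, -0.070 for Val, 0 for GAA, 0.036 for GAC, 0.040 for GAU, -0.11 for UGC, -0.0205 for G minus A and 0.00707 for A-ending codons. With the base composition correction, with or without the replicate block, they were -0.00481 for Ala, -0.00472 for Arg, -0.052 for Asn, -0.023 for Phe, -0.011 for Val, -0.047 for GAA and 0.031 for C minus U in the 4 other boxes. On the linear scale they were -0.00126 for Ala, -0.0393 for Arg and -0.00555 for GAA. With the mean linear occupancy per amino acid they were -0.000191 for Ala and -0.0573 for Arg, with the median codon -0.012 for Ile, and with centring on the 49 codons 0.00266 for G-ending codons. The cause was not tested.

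Without 1 library the range was -0.128 to 0.129 for Ala, -0.0539 to 0.0768 for Arg, -0.0308 to 0.0683 for Asn, -0.0898 to 0.183 for Cys, -0.157 to 0.0543 for Glu, -0.0563 to 0.152 for Phe, -0.259 to 0.035 for Trp, -0.0503 to 0.103 for Val, -0.344 to 0.00789 for CCU, -0.17 to 0.185 for GAA, -0.184 to 0.252 for UGC and -0.153 to 0.272 for UGU. It was -0.0754 to 0.0534 for codons ending in A, -0.0559 to 0.0467 for G and -0.0142 to 0.141 for U. For C minus U it was -0.0127 to 0.0647 over all pairs, -0.0561 to 0.123 for inosine boxes, -0.0236 to 0.102 for queuosine tRNAs and -0.194 to 0.191 for the others, and for G minus A -0.068 to 0.144. Of 951 values under alternatives, 814 were labelled unchanged and 34 passed the threshold in the same direction. Unchanged meant the same direction and side of the threshold, for counts of calls an equal count, and for the first-base class the same direction only. Values with an exact permutation test could not change side, since its p cannot fall below 0.333. The tally is therefore no measure of how stable the differences are.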

Other observations

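The other codon positions were examined after the values had been seen. Of the 16 codons that begin with G, which encode Ala, Asp, Glu, Gly and Val, 0 were higher in KO without overlap and 7 were lower, beside 29.5% and 23% of all 61 codons. Their mean log2 occupancy was 0.02 and 0.08 in the WT libraries and 0.02 and -0.08 in the KO libraries. The groups overlapped, and the difference was -0.08 (exact two-sided permutation p = 0.667). It was negative under each of the 4 scalings and corrections tried, between -0.18 and -0.10, and between -0.13 and -0.03 when any library was left out. With fewer libraries, 0 to 5 of the 16 codons were higher without overlap and 8 to 10 were lower. Codons beginning with C had 9 of 16 higher without overlap and 2 lower, and those beginning with A had 5 of 16 higher and 3 lower. Both class means were higher in both KO libraries by 0.09 (exact permutation p = 0.333 for each), and both were -0.01 after median centring. Codons with U at the second base, which encode hydrophobic amino acids, Leu among them, were higher by 0.13 without overlap (exact permutation p = 0.333) and by 0.04 after median centring. These classes overlap with amino acids, and their part in the differences per amino acid was not tested.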
